A study of Homo sapiens with 6 samples.

Results

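The genes described here encode the core of TGF-β signaling: the ligands TGFB1 and TGFB2, the receptors TGFBR1, TGFBR2 and TGFBR3, the signal carriers SMAD2, SMAD3 and SMAD4, the repressor SKIL and the secreted target TGFBI. They were chosen by symbol, as all probe sets that the array annotation assigns to exactly 1 of these 10 genes. This gave 37 probe sets of 39219 in the table, and all 37 were tested. RNA came from PANC-1 cells, a long-established line from a human pancreatic carcinoma, and was read on Affymetrix 3′ expression arrays. In the treated group, 3 samples received anlotinib, an inhibitor of several receptor tyrosine kinases, at 5.535 μM for 48 h. The control group held 3 samples given its solvent DMSO (spelled DSMO in most labels) for the same 48 h. No gene was altered in either group. Nothing in the labels tells separate cultures from repeats of a single culture, so the p-values measure the spread between these samples, which may be technical.

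In this pathway a TGF-β ligand binds TGFBR2, which recruits and activates the kinase TGFBR1, while TGFBR3 (betaglycan) is a co-receptor that presents the ligand, TGF-β2 above all. TGFBR1 phosphorylates SMAD2 and SMAD3, which join SMAD4 and enter the nucleus to switch genes on or off. SKIL (SnoN) binds SMADs and holds back transcription, and it is itself induced by the pathway. In pancreatic cancer TGF-β restrains growth of early lesions and later favours epithelial-mesenchymal transition and invasion, and SMAD4 is often lost in these tumors.

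TGFBI and TGFB2 were lower with anlotinib at all of their probe sets, while SMAD2 was lower at 5 of 7 probe sets and by at least 2-fold at 2 of them. TGFB1 and SKIL were slightly higher, and TGFBR2 and most probe sets of SMAD4 did not pass the test. A probe set is a group of short probes that reads 1 stretch of an mRNA, and its value is a log2 signal, so that a difference of 1 is a factor of 2. Differences are anlotinib minus DMSO and were tested with limma over all 39063 probe sets that passed the filters. A probe set is written as higher or lower when its false discovery rate (FDR, the Benjamini-Hochberg adjusted p) was under 0.05, and as called when the change was also at least 2-fold. Of the 37 probe sets 1 was called higher and 2 were called lower (8.11% together), where 2.38% of all tested probe sets were called higher and 1.71% lower (4.09% together). By the FDR alone 7 were higher and 15 lower (59.5% together), against 28.3% higher and 28.3% lower over all tested probe sets (56.6% together). In 9 of the 37 all anlotinib arrays lay above all DMSO arrays and in 16 below (67.6% together), where 31.5% and 31.6% of all probe sets did so (63.1% together). By the FDR and by overlap, the shares of both directions together lay near those of the whole array, and the 3 calls are too few to set apart. The split by direction was less even, with 40.5% of the 37 lower (28.3% of all) and 43.2% below (31.6% of all). Of the 15 lower ones 5 were of SMAD2 and 4 of TGFBI, and probe sets of 1 gene are not independent. The counts are therefore not a result about these genes. The median difference over the 37 was −0.01, and −0.02 over all tested probe sets. The differences just inside and just outside the 2-fold limit were 1.07 (TGFBR1) and −0.94 (SMAD2) on the log2 scale.

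**Figure D1:**
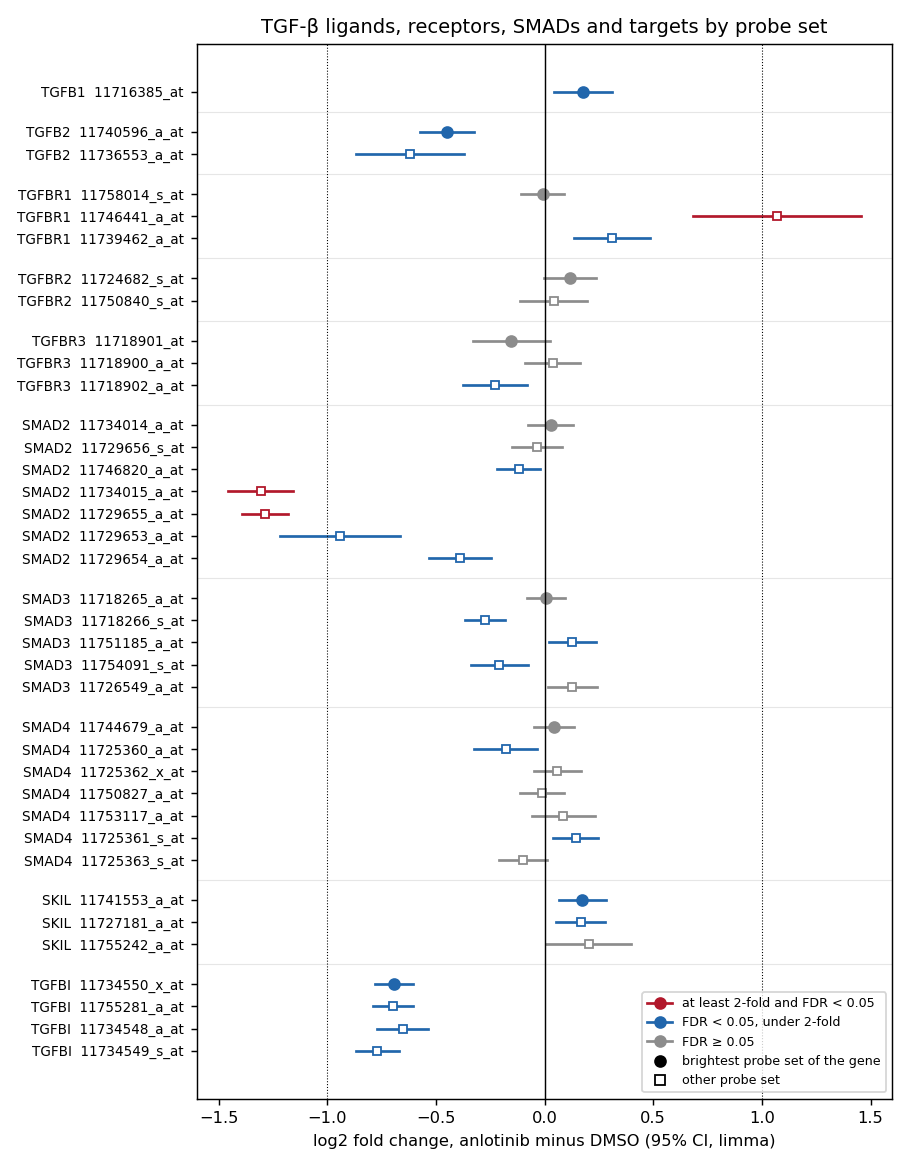
Log2 fold change (anlotinib minus DMSO, x axis) of the 37 probe sets of the 10 genes, with 95% confidence intervals from limma and n = 3 arrays per group. Dotted lines mark 2-fold. TGFBI lies between −0.77 and −0.65 at all 4 probe sets, whereas the 7 of SMAD2 spread from −1.31 to 0.03.

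As facts of the whole series, array medians lay between 7.71 and 7.77, and the Pearson r across probe sets was 0.998 within either group and 0.977 to 0.978 between the groups. All 5 epithelial markers (KRT7, KRT8, KRT18, KRT19 and EPCAM) were measured, KRT18 at a mean log2 signal of 14.02 with anlotinib and 14.59 in DMSO, and all 5 were lower with anlotinib at the brightest probe set, with a median of −0.56. Of the tested endothelial (4), leukocyte (2) and fibroblast (3) markers, 1, 0 and 3 were lower at the brightest probe set. None was called. The endothelial marker PECAM1 averaged 5.12 with anlotinib and 5.40 in DMSO, at percentile 13.3 of the table. Of the fibroblast markers, COL3A1 averaged 4.43 with anlotinib and 4.71 in DMSO, where the dimmest tested probe set averaged 4.41. COL1A1 was lower at −0.30 and −0.42, while 11760635_at (0.13) and 11746872_a_at (−0.17) did not pass. Background was not measured. The part of these markers in the results below was not tested. The 3′ minus 5′ difference of the control probe sets, which widens when RNA is degraded, was −0.35 ± 0.03 with anlotinib and −0.34 ± 0.03 in DMSO for GAPDH (SD, n = 3 each, exact two-sided permutation test, p = 0.6). For ACTB it was −0.09 ± 0.02 with anlotinib and −0.14 ± 0.03 in DMSO (SD, n = 3 each, exact permutation p = 0.1, the smallest that 3 arrays against 3 allow).

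Among the ligands, TGFB2 was lower and TGFB1 slightly higher. TGFB2, the isoform that depends most on betaglycan, has 2 probe sets. At the brighter one (11740596_a_at; brightest means the highest mean over the 6 arrays) the log2 signals were 9.14, 9.14 and 9.20 with anlotinib, against 9.69, 9.60 and 9.53 in DMSO. The groups did not overlap, and the difference was −0.45 (SE 0.05, 95% CI −0.57 to −0.32, limma adjusted p = 2.75e-04). The other probe set (11736553_a_at) read 5.52, 5.64 and 5.37 with anlotinib, against 6.07, 6.33 and 5.98 in DMSO, a difference of −0.62 (SE 0.11, adjusted p = 0.00181). Its mean signal lies at percentile 22.5 of the table. Both probe sets moved the same way, and the 2 differences were 0.17 apart (exact two-sided permutation test over the arrays, p = 0.4).

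TGFB1, the most widely expressed isoform, has 1 probe set (11716385_at), with signals of 7.57, 7.49 and 7.68 with anlotinib and 7.36, 7.42 and 7.41 in DMSO. All anlotinib arrays lay above all DMSO arrays, by a mean of 0.18 (SE 0.06, 95% CI 0.04 to 0.31, limma adjusted p = 0.0312). TGFB1 lost the FDR when any array except anlotinib 2 was left out, and over 12 alternatives its adjusted p lay between 0.0108 and 0.0893.

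Of the receptors, TGFBR1 gave different answers at its 3 probe sets. At the brightest (11758014_s_at) the signals were 10.18, 10.26 and 10.23 with anlotinib and 10.22, 10.26 and 10.21 in DMSO. These values overlapped, the difference was −0.01 (SE 0.04), and the 95% CI of −0.11 to 0.09 leaves out a change of 2-fold. The probe set 11746441_a_at read 5.98, 5.92 and 5.63 with anlotinib, against 5.09, 4.46 and 4.78 in DMSO. It is the only called increase of the pathway core, at 1.07 (SE 0.16, 95% CI 0.68 to 1.46, limma adjusted p = 0.00106). The DMSO arrays spread most here, with an SD of 0.31, the highest of any group of the 37 probe sets, and without DMSO 2 the difference was 0.91, under the 2-fold limit. The third (11739462_a_at) had 4.71 to 4.89 with anlotinib and 4.38 to 4.61 in DMSO, a difference of 0.31 (SE 0.07, adjusted p = 0.00945). The mean signals of these 2 lie at percentiles 14.2 and 2.46 of the table, with DMSO means of 4.77 and 4.50. Across all tested probe sets the dimmest averaged 4.41.

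The study also lists RT-PCR primers for TGFBR1, shown because they name a stretch of this mRNA by sequence. According to the paper, genes picked at random from those up- or down-regulated on its arrays changed in the same direction by RT-PCR. Its text does not say whether TGFBR1 was among them. Where the primers lie relative to the 3 probe sets was not analysed here.
TGFBR1 forward primer: cacagagtgggaacaaaaaggt
TGFBR1 reverse primer: ccaatggaacatcgtcgagca

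TGFBR2, the ligand-binding kinase, passed the test at neither of its 2 probe sets. The brighter (11724682_s_at) read 10.43, 10.38 and 10.48 with anlotinib and 10.24, 10.37 and 10.33 in DMSO, a difference of 0.12 (SE 0.05, 95% CI just below 0 to 0.23, adjusted p = 0.0870). The lowest anlotinib array lay barely above the highest DMSO array, and the adjusted p was 0.0175 with a trended, robust variance prior and 0.0399 once the dimmest 40% of probe sets were dropped. The other had 0.04 (SE 0.07, 95% CI −0.11 to 0.20). TGFBR3 read 7.26, 7.19 and 7.24 with anlotinib at its brightest probe set (11718901_at), and 7.36, 7.54 and 7.25 in DMSO, a difference of −0.15 (SE 0.07, 95% CI −0.33 to 0.02). Its values overlapped, and the adjusted p was 0.122, or 0.0352 without DMSO 3. Of its other probe sets, 11718902_a_at was lower at −0.23 (SE 0.06, adjusted p = 0.0166) and 11718900_a_at had 0.04 (adjusted p = 0.580). None of the 5 probe sets of these 2 receptors changed by as much as 1.5-fold, since their 95% CIs ran from −0.37 to 0.23.

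**Figure D2:**
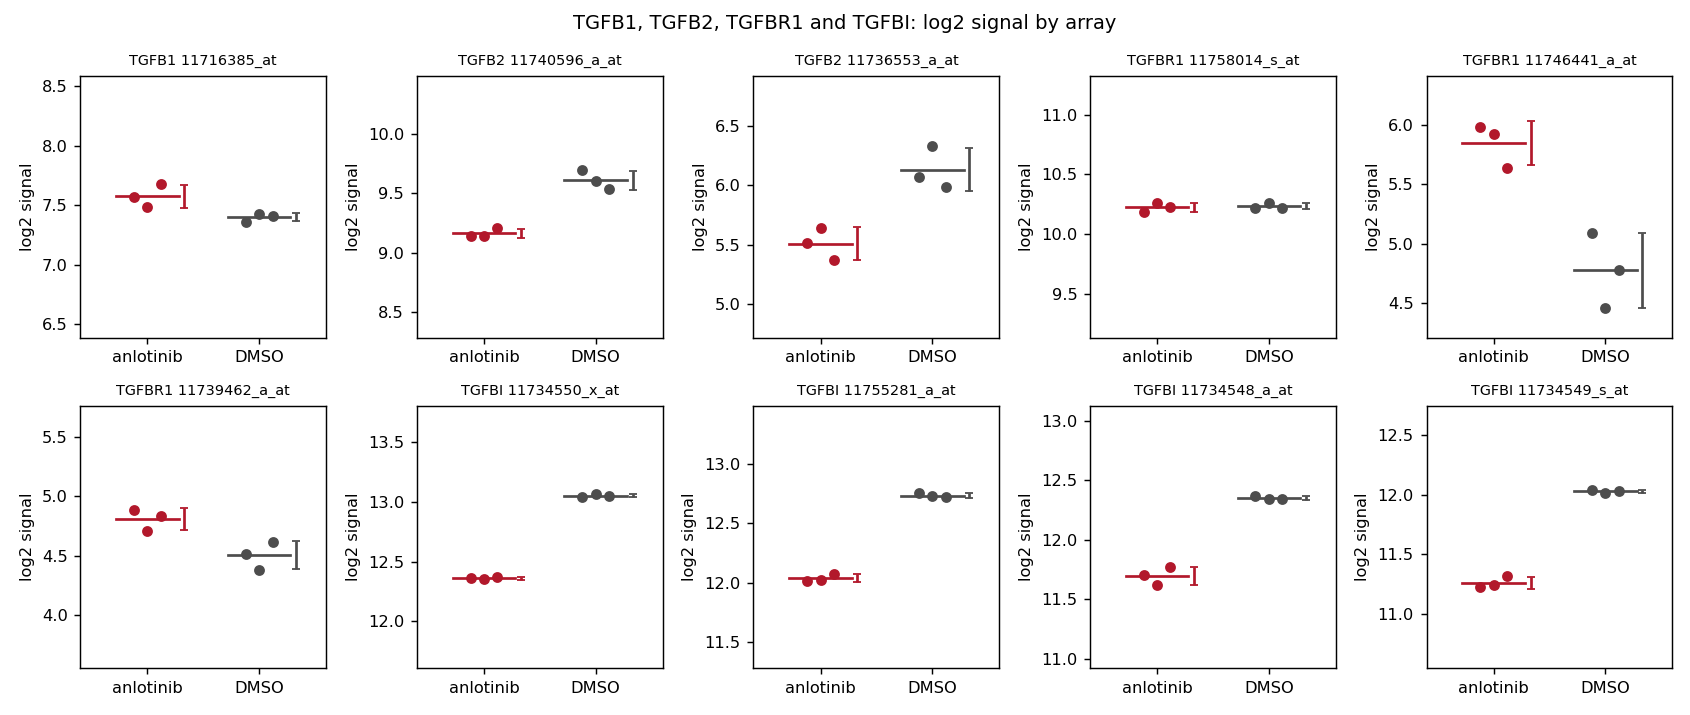
Log2 signal of TGFB1, TGFB2, TGFBR1 and TGFBI, 1 panel per probe set with an axis of the same height, each point an array (3 anlotinib on the left, 3 DMSO on the right), lines the means and bars the SD. At TGFBR1 the brightest probe set has both groups near 10.2, while 11746441_a_at has 5.84 with anlotinib and 4.77 in DMSO.

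SMAD2, which TGFBR1 activates by phosphorylation, had the most uneven readings of the 10 genes. Its probe set 11734015_a_at read 7.52, 7.44 and 7.65 with anlotinib, against 8.90, 8.85 and 8.78 in DMSO. The anlotinib signal was 40.5% of that in DMSO, a difference of −1.31 (SE 0.06, 95% CI −1.46 to −1.16, limma adjusted p = 5.48e-06). The probe set 11729655_a_at read 7.24, 7.36 and 7.30 with anlotinib, against 8.58, 8.59 and 8.60 in DMSO, a difference of −1.29 (SE 0.05, adjusted p = 1.86e-06). Both were called down, and in both the lowest DMSO array stood more than 1 log2 unit above the highest anlotinib array.

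A step below, 11729653_a_at read 7.23, 7.56 and 7.10 with anlotinib, against 8.15, 8.25 and 8.32 in DMSO, a difference of −0.94 (SE 0.12, adjusted p = 3.64e-04). It missed the 2-fold limit through the anlotinib 2 array, without which the difference was −1.07 and the probe set was called. At 11729654_a_at the signals were 7.31, 7.25 and 7.32 with anlotinib and 7.72, 7.57 and 7.76 in DMSO, a difference of −0.39 (SE 0.06, adjusted p = 0.00111). All 4 of these probe sets were lower under each alternative tried.

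The other 3 probe sets of SMAD2 hardly moved. The brightest (11734014_a_at) read 9.99, 9.98 and 10.06 with anlotinib and 9.95, 10.03 and 9.97 in DMSO, with a difference of 0.03 (SE 0.04, 95% CI −0.07 to 0.13). At 11729656_s_at the difference was −0.03 (SE 0.05, 95% CI −0.15 to 0.08), and both intervals lie far from a 2-fold change. At 11746820_a_at it was −0.12 (SE 0.04, adjusted p = 0.0440), a call by the FDR that was lost under 6 of 12 alternatives. The 4 dimmer probe sets of this gene were thus lower, at −0.39 to −1.31, while the 3 brighter ones, of which 11746820_a_at passed the FDR, lay within 0.12 of 0.

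The probe sets of SMAD2 were set against its brightest array by array. The difference of the differences was −1.33 for 11734015_a_at, −1.31 for 11729655_a_at, −0.97 for 11729653_a_at and −0.42 for 11729654_a_at, each with p = 0.1 in an exact two-sided permutation test over the arrays, the smallest that this design allows. Over the 10 genes 27 such pairs were compared, 16 of them had this p, and adjusted over the 27 it was 0.169, so no pair could pass 0.05. For the size of the disagreement, the highest minus the lowest difference within SMAD2 was 1.33, and 0.32 within SMAD4, which also has 7 probe sets. Among 395 genes with 7 or more probe sets the median of this range was 0.51, and 30 of them (7.59%) had a range at least as wide as SMAD2. Of the 60 such genes called at any probe set, 56 were called at some and not at others, so a call at only some probe sets was the usual case. By the annotation, 11734015_a_at was designed from a RefSeq transcript of SMAD2, which none of the other 6 was. The position of the probe sets along the mRNA was not analysed here.

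**Figure D3:**
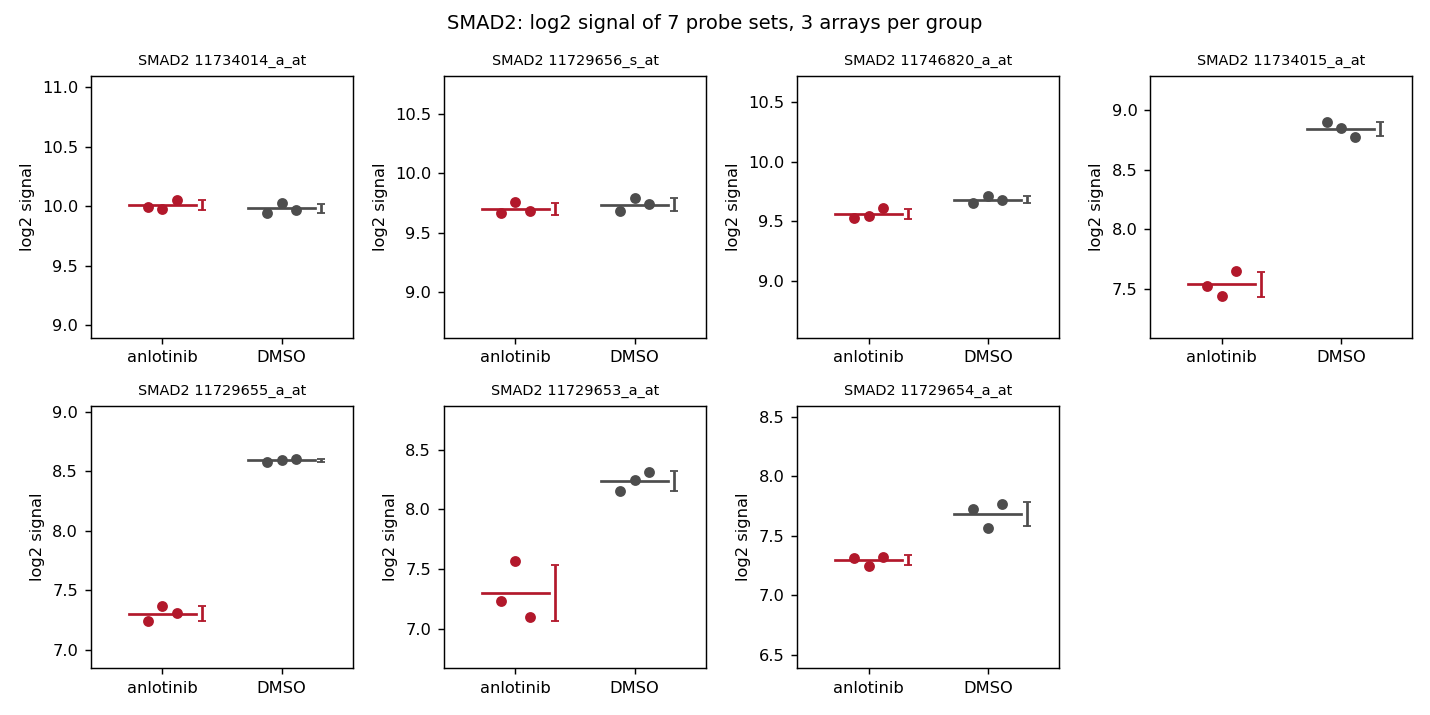
Log2 signal of SMAD2 at its 7 probe sets, brightest first, each point an array (3 anlotinib on the left, 3 DMSO on the right), lines the means and bars the SD, with axes of the same height. In the first 3 panels the group means are within 0.12 of each other, and in the last 4 every anlotinib array lies below every DMSO array.

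**Figure D4:**
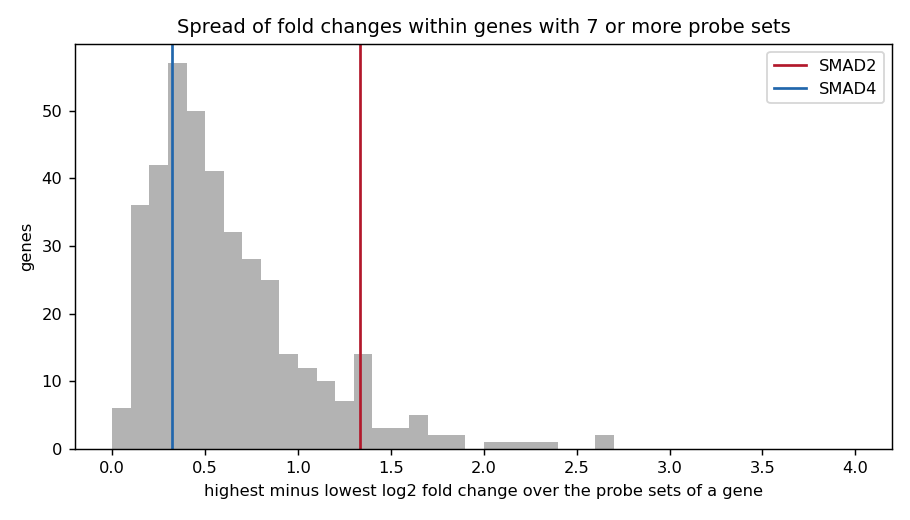
Histogram of the highest minus the lowest log2 fold change over the probe sets of a gene (x axis, log2 units), for the 395 genes with 7 or more probe sets. SMAD2 (red line, 1.33) lies in the right tail and SMAD4 (blue line, 0.32) near the peak.

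SMAD3, the other SMAD that the receptor activates, was split at small sizes. The brightest probe set (11718265_a_at) read 12.42, 12.42 and 12.46 with anlotinib and 12.43, 12.43 and 12.42 in DMSO, a difference of 0.01 (SE 0.04, 95% CI −0.08 to 0.09). The next (11718266_s_at) read 11.60, 11.58 and 11.64 with anlotinib, against 11.86, 11.87 and 11.90 in DMSO. This one was lower by a difference of −0.27 (SE 0.04, adjusted p = 7.98e-04), as was 11754091_s_at, by −0.21 (adjusted p = 0.0151). The remaining 2 had 0.13 each (adjusted p = 0.0490 and 0.0568), and the first of these passed the FDR under 4 of 12 alternatives only. No probe set of SMAD3 came near 2-fold.

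SMAD4, the partner that both share, read 9.63, 9.60 and 9.65 with anlotinib and 9.60, 9.59 and 9.55 in DMSO at its brightest probe set (11744679_a_at). These values overlapped, with a difference of 0.04 (SE 0.04, 95% CI −0.05 to 0.14). Over its 7 probe sets the differences ran from −0.18 to 0.14. By the FDR 1 was lower (11725360_a_at, −0.18, adjusted p = 0.0419) and 1 higher (11725361_s_at, 0.14, adjusted p = 0.0265), in opposite directions, and neither stayed past it under all alternatives (highest adjusted p 0.129 and 0.0781). The SMAD4 mRNA was measured at similar signals in both groups.

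SKIL and TGFBI are genes that TGF-β induces, and they moved in opposite directions. SKIL read 8.29, 8.28 and 8.29 with anlotinib at its brightest probe set (11741553_a_at), against 8.12, 8.04 and 8.17 in DMSO. The difference was 0.17 (SE 0.05, 95% CI 0.07 to 0.28, limma adjusted p = 0.0148), and the arrays did not overlap. The other 2 probe sets gave 0.17 (adjusted p = 0.0204, and 0.0704 at the highest with an array left out) and 0.20 (adjusted p = 0.0728), so that all 3 pointed the same way with a spread of 0.04 between them.

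TGFBI, a secreted matrix protein that binds integrins and collagen, was lower at all 4 probe sets. The brightest (11734550_x_at) read 12.36, 12.35 and 12.37 with anlotinib, against 13.04, 13.07 and 13.05 in DMSO. The anlotinib signal was 61.9% of that in DMSO, a difference of −0.69 (SE 0.04, 95% CI −0.78 to −0.61, limma adjusted p = 7.45e-06). The differences at the others were −0.70 (SE 0.04), −0.65 (SE 0.05) and −0.77 (SE 0.04), with adjusted p of 1.01e-05, 3.27e-05 and 8.54e-06. No TGFBI reading overlapped between the groups, and the 4 differences lay within 0.12 of each other. TGFBI was under the 2-fold limit at each probe set and passed a limit of 1.5-fold at all 4. Of the 4 probe sets 3 were designed from the same RefSeq transcript, so they are not independent readings.

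The stretches upstream of the start sites of TGFB2, SKIL and TGFBI are shown as those of a ligand and of 2 targets whose probe sets each pointed a single way, although 1 of the 3 of SKIL did not pass the test. They were taken from RefSeq (GRCh38.p14), 250 bases each, and searched on both strands for CAGAC, a short box that SMAD3 and SMAD4 bind, whose reverse complement is GTCTG. Matches are in capitals.
TGFB2, chr1:218345086-218345335, plus strand: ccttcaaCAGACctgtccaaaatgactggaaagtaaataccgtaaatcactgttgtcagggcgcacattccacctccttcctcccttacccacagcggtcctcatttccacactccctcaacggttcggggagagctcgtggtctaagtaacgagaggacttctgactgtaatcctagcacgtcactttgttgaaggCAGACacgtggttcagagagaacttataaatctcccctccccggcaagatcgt
SKIL, chr3:170357465-170357714, plus strand: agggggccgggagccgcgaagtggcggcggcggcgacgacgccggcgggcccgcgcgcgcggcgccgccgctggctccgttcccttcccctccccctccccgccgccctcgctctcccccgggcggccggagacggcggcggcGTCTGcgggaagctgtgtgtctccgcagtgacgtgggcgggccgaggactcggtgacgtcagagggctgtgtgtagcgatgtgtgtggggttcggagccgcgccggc
TGFBI, chr5:136028738-136028987, plus strand: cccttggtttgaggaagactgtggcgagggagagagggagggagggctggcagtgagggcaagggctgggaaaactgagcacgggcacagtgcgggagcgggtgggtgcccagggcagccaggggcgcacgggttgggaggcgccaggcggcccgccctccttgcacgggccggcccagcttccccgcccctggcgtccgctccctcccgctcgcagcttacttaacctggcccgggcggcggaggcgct
The box occurs 2 times in the TGFB2 stretch, 1 time in that of SKIL and 0 times in that of TGFBI. Of all 35116 RefSeq stretches of this length 38.0% hold it, so a match is common. Of the 23 such stretches of the 10 genes 8 hold it. Counted by gene, 4 of the 10 hold it in any stretch, a count not comparable with the 38.0%, since some genes have several stretches. The palindrome GTCTAGAC, which contains neither form of the box, occurs in none of the 23 stretches of the 10 genes and in 0.182% of all.

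The wider pathway was read through 6 lists with 73 genes, of which 66 were tested and the other 7 are not analysed here. At the brightest probe set 4 genes were called higher and 4 lower, where 2.10% of all genes were called higher and 1.91% lower, and at any probe set 4 and 5 (3.47% and 2.58% of all genes). By the FDR at the brightest probe set, 19 were higher, 25 lower and 22 neither, against 25.4% higher and 29.7% lower over all genes. The median over the 66 was −0.04, the same as over all genes, also −0.04.

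Proteins that release the ligand from its latent complex, and further ligands, were called in no case among 12 genes. By the FDR 3 were lower at the brightest probe set. These were ITGAV (an integrin chain that activates latent TGF-β) by −0.69, FURIN (the protease that cleaves the precursor) by −0.65 and LTBP2 by −0.27. INHBB, a chain of activin B, was higher by 0.15. Of the other ITGAV probe sets, 11716301_a_at had 0.08 (adjusted p = 0.183), and the rest were lower at −0.54, −0.40 and −0.54. Among 7 further receptors BMPR2, the type II receptor of BMPs, was called lower at −1.07 (SE 0.05), with −0.51 and −0.68 at its other probe sets. All 5 remaining SMADs were lower by the FDR at the brightest probe set, with a median of −0.40. That median is the value of SMAD9, which averaged only 4.83 with anlotinib and 5.23 in DMSO, at percentile 9.34 of the table. SMAD6, which blocks BMP signaling, had −1.71 (SE 0.07) and −1.17 at 2 called probe sets, and −0.55 at the third. SMAD5, a carrier of BMP signals, had −0.61 (SE 0.06) and SMAD1 −0.17 (SE 0.05). Of the other SMAD5 probe sets, 11729719_a_at had −0.05 (adjusted p = 0.349), and the rest were lower at −0.47, −0.45 and −0.55. SMAD7, the inhibitor that TGF-β itself induces, was lower at its brightest probe set, at −0.23 (SE 0.07, adjusted p = 0.0239), while its other probe sets gave 0.12 and 0.06 and did not pass.

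Among 19 regulators of SMADs 9 were higher and 4 lower by the FDR at the brightest probe set, with a median of 0.11. PMEPA1, a membrane protein that TGF-β induces and that sequesters SMAD2 and SMAD3, had the largest decrease of the 66 genes after CDH1 and SMAD6 at the brightest probe set. It had log2 signals of 9.40 ± 0.08 with anlotinib and 10.98 ± 0.02 in DMSO (SD, n = 3 each), a difference of −1.57 (SE 0.05), and −1.99 and −1.50 at its other probe sets, all called. NEDD4L, a ubiquitin ligase that targets activated SMAD2 and SMAD3, was called higher, with 10.94 ± 0.01 with anlotinib and 9.48 ± 0.03 in DMSO (SD, n = 3 each), a difference of 1.46 (SE 0.04). Of its 7 probe sets 4 were called higher, at 1.43 to 1.53, and 11741141_x_at was higher at 0.80, while 11722423_a_at had −0.09 and 11722425_s_at was lower at −0.32. PPM1A, a phosphatase reported to act on SMAD2 and SMAD3, had 5 probe sets that differed, with 0.07 (adjusted p = 0.149) at the brightest, −1.59 and −1.05 at 2 called ones, 0.29 (higher, adjusted p = 0.00533) at 11726946_at and −0.17 (adjusted p = 0.246) at 11726945_at. Below 2-fold at the brightest probe set, the ubiquitin ligase SMURF1 (0.61), the receptor adaptor HGS (0.66) and the deubiquitinase USP15 (0.72) were higher, and the SMAD repressors TGIF1 (−0.74) and SKI (−0.44) lower. SKI was also lower at −0.42 and −0.40, but had 0.04 (adjusted p = 0.498) at 11734996_at and 0.08 (adjusted p = 0.628) at 11734997_at. USP15 differed between its probe sets. It was also higher at 11717777_a_at (0.61), had 0.11 (adjusted p = 0.184) at 11717778_at, and was lower at 11759627_at (−0.45) and 11759626_at (−0.44).

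Of 18 tested genes that TGF-β induces, 6 were higher and 8 lower by the FDR at the brightest probe set, with a median of −0.17. The called ones were the transcription factors SNAI1 at 1.08 (SE 0.10) and SNAI2 at 1.19 (SE 0.17), the second with a DMSO signal of 4.35 at the bottom of the table. Without DMSO 3, SNAI1 had 0.999 and was not called. CCN2, a matrix-associated growth factor and standard target of SMAD3, was lower at all 3 probe sets, by −0.83 (SE 0.07), −0.97 and −0.89, as was PDGFB by −0.89, and neither was called. At the brightest probe set CDH2, which encodes N-cadherin, had −0.94 and the cell cycle inhibitor CDKN1A −0.43, while the transcription factor JUNB had 0.53 and the tropomyosin TPM1 0.40. Other probe sets of TPM1 went both ways, from −0.44 (11730961_a_at, lower) to 0.43 (11761349_x_at, higher). Of 5 genes that TGF-β represses in epithelial cells, ID2 was called higher at 2.40 (SE 0.07) and CDH1, which encodes E-cadherin, lower at −2.00 (SE 0.06). The CDH1 signal averaged 4.72 with anlotinib and 6.72 in DMSO. The dimmest tested probe set averaged 4.41, and the lowest single value of the table was 3.72. Background was not measured, so it may limit the size of this decrease, which could then be larger. MYC was higher at 0.64, ID1 lower at −0.60, and ID3 had −0.04. Target genes thus moved both ways in either list.

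**Figure D5:**
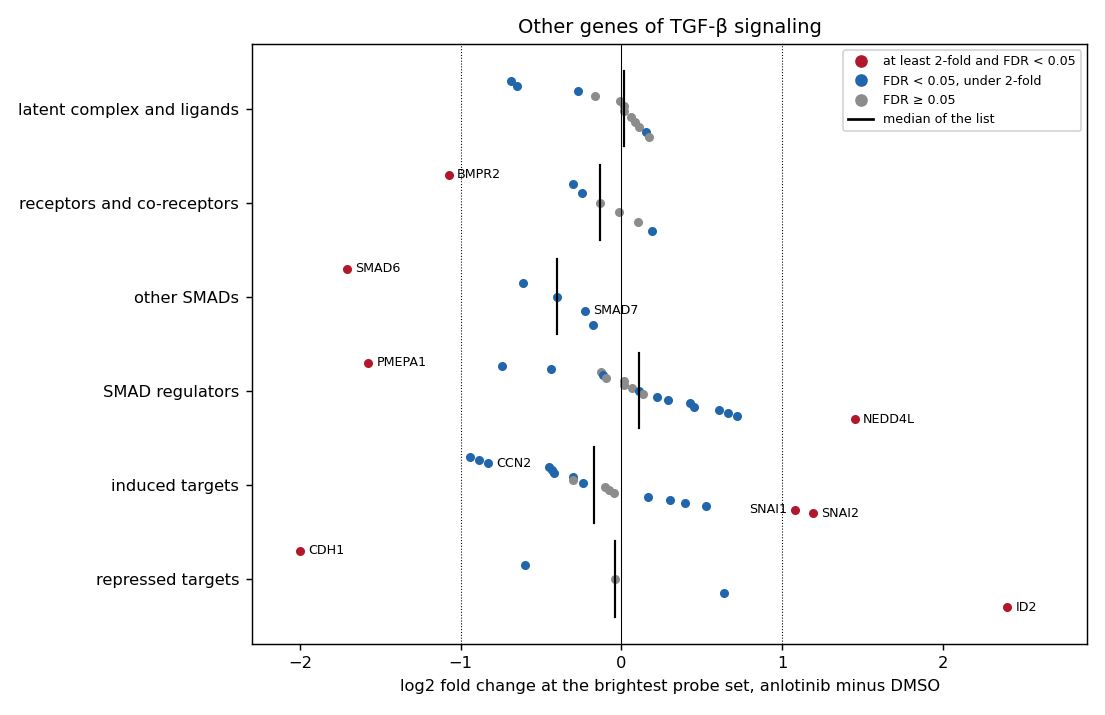
Log2 fold change at the brightest probe set (x axis, anlotinib minus DMSO) of 66 other genes of TGF-β signaling in 6 lists, each point a gene and each black bar the median of a list. Called genes, CCN2 and SMAD7 are named, and points lie on both sides of 0 in every list but that of the other SMADs, where all 5 are below it.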

How the data were processed

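Total RNA of PANC-1 cells was labelled and hybridized to Affymetrix arrays. With RMA, per the labels, the authors corrected background, normalized the arrays against each other and combined probes, and deposited log2 signals of 39219 probe sets, which are not centred. The methods describe a filter on the lowest 20% of signals, which was not applied again. Genes were named through the platform annotation, with symbols updated by Entrez identifier to the RefSeq table. Left out were 73 control probe sets and 83 with a coefficient of variation over 25% within a group, taken on the linear signal because the methods do not name its scale. For the other 39063, limma (version 3.58.1, under R 4.3.3) gave moderated tests with 2.98 prior degrees of freedom, adjusted by Benjamini and Hochberg over all of them. Called means at least 2-fold and FDR under 0.05, as in the study's methods. On simulated data with independent noise all 50 probe sets shifted by 1.25 were called, and 0 of 38863 unshifted ones. With a median residual SD of 0.07 and a shift beyond the 2-fold limit, this outcome was nearly fixed beforehand. It checks only that the steps run as meant, and does not bear on differences close to the limit. Arrays give no counts, and 3 arrays per group limit the precision.

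The genes and lists were chosen with earlier results of these data known. By rule, array values were given for called probe sets and the brightest probe set of each of the 10 genes, and in the lists all called genes, SMAD7 and CCN2 were named. Other names, and the comparison of ranges over probe sets, were chosen after values were seen. Alternatives were no limit on variation, the lowest 40% of signals left out, a second quantile normalization, centring, 1.5-fold or no fold limit, a block for the replicate number, a trended and robust variance prior, probe sets ending in _x_at left out, and each array left out.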

Additional observations from a re-analysis of the deposited data

How the results depend on the processing

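Of the 22 probe sets of the 10 genes past the FDR, 15 stayed past it under each of the 12 refits of the data that tested them, and 0 changed sign. Of these 15, 12 were tested in all refits, and 3 (1 of TGFB2, 2 of TGFBR1) were not tested with the lowest 40% of signals left out. Of the 15 not past the FDR, 5 passed it under at least 1 refit, 1 each of TGFBR2, TGFBR3, SMAD3, SMAD4 and SKIL. The exceptions were those of TGFB1, SKIL (11727181_a_at), TGFBR3, SMAD2 (11746820_a_at), SMAD3 (11751185_a_at) and 2 of SMAD4, all with differences of at most 0.23 in size. With the lowest 40% of signals left out, 0 probe sets and 0 of the 10 genes were called higher, since the TGFBR1 probe set is no longer tested. Of the other pathway genes 3 were then called higher and 3 lower at the brightest probe set, since SNAI2 and CDH1 are no longer tested, and with arrays left out in turn 3 to 4 were called higher. With arrays left out in turn, the called higher ones were 0 to 1 in number for probe sets and 0 to 1 for genes, with 0 reached without DMSO 2. With the 1.5-fold limit, 8 probe sets of 3 of the 10 genes were called lower (1 gene, TGFBI, at the brightest probe set). Over the array, 3273 were then called higher and 2868 lower, and among the other pathway genes 11 higher and 15 lower at any probe set, 8 and 12 at the brightest. By the FDR alone, 7 probe sets of 5 of the 10 genes were higher and 15 of 6 genes lower, 2 and 2 genes at the brightest. Over the array, 11047 were then higher and 11048 lower, and among the other pathway genes 23 higher and 35 lower at any probe set, 19 and 25 at the brightest. The larger counts follow from the looser limit itself. The deviations of samples with the same replicate number from their group means had r of 0.17, 0.01 and −0.14 across probe sets. With 3 arrays per group this check cannot tell whether such samples shared a culture or a day, and the labels do not say. With the replicate number as a block 928 probe sets were called higher and 668 lower, as without it, and 1 and 2 of the 37. The adjusted p of TGFBI (11734550_x_at) ran from 3.68e-14 to 2.32e-04 and that of SMAD2 (11734015_a_at) from 2.55e-12 to 1.57e-04 over the alternatives. In DMSO 2 of the 3 TGFBR1 probe sets had means of 4.77 and 4.50, against 4.41 for the dimmest tested probe set. Background was not measured and may limit their differences.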
